A study of Mus musculus with 2 samples.

Results

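The miRNAs described here are encoded in the imprinted region between Dlk1 and Dio3 on mouse chromosome 12. They were chosen by name, as the mouse probes of the array whose name carries 1 of 48 stems assigned to this region, on any arm and without mismatch probes. This gave 49 miRNAs from 40 hairpin genes, out of 419 mouse miRNAs. For 8 of the stems, miR-323, miR-337, miR-412, miR-493, miR-544, miR-665, miR-758 and miR-882, no mouse probe was analysed here. Checked against RefSeq's genes (GRCm38.p6), each of the 49 comes from a gene lying between Dlk1 and Dio3; imprinting itself was not measured. A fold change is given in the authors' deposited table for 36 of the 49, and the counts below are over these 36.

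The cells were of the mouse line G2N2C, which derives from a basal cell carcinoma (BCC), a skin tumour of keratinocyte type, and were transfected either with Stealth-D3 or with Stealth-ctr, synthetic RNA duplexes, and harvested after 48 h. Both groups were grown in low calcium with 8% calcium-depleted fetal bovine serum and keratinocyte growth factor. D3 is the type 3 deiodinase, the enzyme that inactivates thyroid hormone, and Dio3 is its gene, so the transcript interfered with comes from the region that also encodes these miRNAs. For each condition the RNA of 3 experiments was combined in a pool, and these pools were hybridised together to 2 two-colour arrays with the dyes exchanged, which makes 1 replicate per condition. The SDs below are therefore technical, over the 2 arrays, and no test between the conditions was possible. The level of the Dio3 transcript was not analysed here.

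All values are log2 ratios between the pools, with the sign of the first array turned. Whether the ratios are red over green or green over red is not given in the sources, so which pool a sign favours is not settled. A positive value points the way of miR-21, the mouse miRNA farthest from 0, which had 3.08 and 4.12 on the arrays and has 2.73 in the authors' deposited table. Values below 0 are said to lie opposite miR-21. If the ratios are red over green, the side of miR-21 is higher in the D3-interfered pool, and if green over red, higher in the control pool. The deposited ratios rose with average intensity, with r of 0.55 and 0.57 over 1677 probes on the arrays before turning. Each main value is therefore given also with a smooth trend on intensity removed.

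In this region the paternal chromosome expresses the protein-coding genes Dlk1, Rtl1 and Dio3, and the maternal chromosome expresses long noncoding RNAs, among them Meg3, Rian and Mirg, from which the miRNAs are cut. The miRNAs are best known from embryo, placenta and brain, and several of those that lie antisense to Rtl1 direct cleavage of its transcript in mouse. A miRNA recognises targets mainly by its seed, bases 2 to 8 from its 5′ end.

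The mature sequences of the miRNAs on which the results turn are shown first, with the seed in capitals: miR-370, which passed the rule of size on one side, both arms of the Mir433 hairpin, one of which passed on the other side, miR-341, the neighbour of miR-370, and miR-667, miR-494 and miR-668, which were among the brightest. They are RefSeq sequences of GRCm38.p6, found for 46 of the 49 members, and not read from the probes. Array names without an arm were assigned to an arm by their current names.
miR-370: gCCUGCUGggguggaaccuggu
miR-341: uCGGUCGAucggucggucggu
miR-433*: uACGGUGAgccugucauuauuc
miR-433: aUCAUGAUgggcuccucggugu
miR-494: uGAAACAUacacgggaaaccuc
miR-667: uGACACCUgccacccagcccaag
miR-668: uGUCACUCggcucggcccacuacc

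All of these lie on the + strand of chromosome 12 in GRCm38.p6, with miR-433* at chr12:109591729-109591750, miR-433 at chr12:109591781-109591802, miR-341 at chr12:109611556-109611576 and miR-370 at chr12:109618305-109618326. Farther along, miR-494 is at chr12:109715367-109715388, miR-667 at chr12:109720061-109720083 and miR-668 at chr12:109734774-109734797. The genes of miR-433 and miR-433* overlap the annotated span of Rtl1, and those of miR-341 and miR-370 that of Rian; those of the other 3 overlap none of Meg3, Rtl1, Rian and Mirg. No member shared its seed with another member. With other mature mouse miRNAs of RefSeq, 9 of 46 shared it, such as miR-329 with miR-362-3p and miR-379 with miR-1193-5p. None of these sharing miRNAs was matched by name among the mouse miRNAs of the array.

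Most probes for the region were dim. In the authors' deposited table the average log2 intensity of the 36 members ran from 6.59 to 14.7, with a median of 6.94, against a median of 7.16 over the 373 mouse miRNAs with a fold change. The brightest probe without a fold change in that table had 6.99, and 20 of the 36 members (55.6%) lay at or under it, against 36.5% of the 373. The other 13 members have no fold change there, which is 26.5% of 49, while 46 of the 419 mouse miRNAs have none. In all, 33 of the 49 lay at or under 6.99. An intensity also depends on the probe, so it does not rank levels, and for a dim probe a ratio near 0 does not show that the pools were alike.

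Above an average log2 intensity of 8 in the authors' deposited table lay 5 members: miR-433* with 8.07, miR-667 with 8.59, miR-370 with 8.78, miR-494 with 13.5 and miR-668 with 14.7. This is 13.9% of the members, against 27.9% of the 373 mouse miRNAs. The probe of miR-668 was the brightest of all 373 and that of miR-494 ranked 4. The members' genes next to Mir668 on either side are Mir134 and Mir485, whose miR-134, miR-485 and miR-485* have 6.66, 6.64 and 6.94 in the authors' deposited table. The bright members were thus scattered along the region, with dim ones between them.

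**Figure D1:**
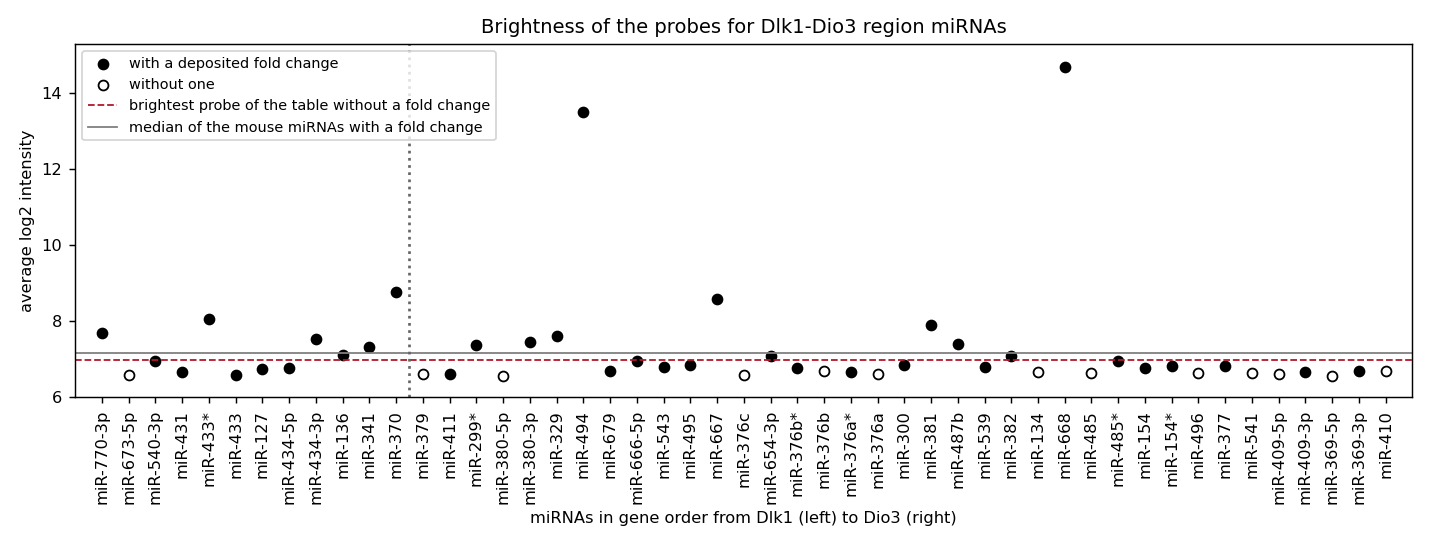
Average log2 intensity (vertical axis) from the authors' deposited table for the 49 miRNAs in gene order from Dlk1 to Dio3; filled points have a fold change there, open points have none, and the dotted line marks the start at miR-379. The dashed line at 6.99 is the brightest probe without a fold change and the grey line at 7.16 the median of the mouse miRNAs with one; miR-494 and miR-668 stand at 13.5 and 14.7, and 33 of the 49 points lie at or under the dashed line.

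By the rule of size, 1 sign on both arrays and a mean of at least 1.5-fold (0.585 on the log2 scale), 1 of 36 members passed toward miR-21 and 1 passed opposite it. Over the 373 mouse miRNAs these shares were 8.85% and 3.22%, or 12.1% for both sides. Of the 45 mouse miRNAs that passed, 44 lay above the median intensity of 7.16, as did only 13 of the 36 members. The other 34 members did not pass. The pair that passed was miR-433* and miR-370, and the counts were also 1 and 1 with the trend removed, where 8.04% and 5.36% of all mouse miRNAs passed. With the limit lowered to 0.32 on the log2 scale, 2 members passed on each side, miR-341 and miR-654-3p being added, against 15.8% of all mouse miRNAs toward miR-21 and 6.17% opposite it.

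miR-370, which is known to repress the fatty acid oxidation gene CPT1A in human liver cells, had -1.83 and -1.11 on the arrays. Both arrays lay opposite miR-21, and its mean was the lowest of the 36 members. The mean was -1.47 ± 0.51 (technical SD, 2 arrays), or 2.76-fold. With the trend removed the arrays came to -1.49 and -1.58, only 0.09 apart, with a mean of -1.53 ± 0.06. The authors' deposited table gives -1.31, the lowest value of the 373 mouse miRNAs there. By the mean of the arrays miR-370 ranked 2 from the low end, and 3 with the trend removed. Its difference was thus larger than the spread between the arrays in both forms, and of the same side in the authors' deposited table.

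The neighbouring gene in Rian encodes miR-341, a miRNA of rodents. Its arrays gave 0.28 and 0.72, both on the side of miR-21. The mean of 0.50 ± 0.31 did not reach the rule of size, and with the trend removed it was 0.47 ± 0.18. The authors' deposited table gives 0.18. The pair of measured members that overlap Rian therefore lay on different sides, and on different sides also in the authors' deposited table.

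miR-433* is the 5′ arm of a hairpin whose 3′ arm, miR-433, is known to target FGF20 in human cells. Its first array gave 0.33 and its second 4.22, so its mean of 2.27 ± 2.75 rested on 1 array. The spread between the arrays was larger than the mean. Removing the trend left 0.53 and 3.94. The authors' deposited table gives 0.11, where it ranked 97 from the high end of the 373. The 3′ arm, miR-433, had 0.99 and -0.06 on the arrays, a mean of 0.47 ± 0.74, and -0.07 in the authors' deposited table. For both arms the value in the authors' deposited table lay nearer to that of 1 array than to the mean.

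**Figure D2:**
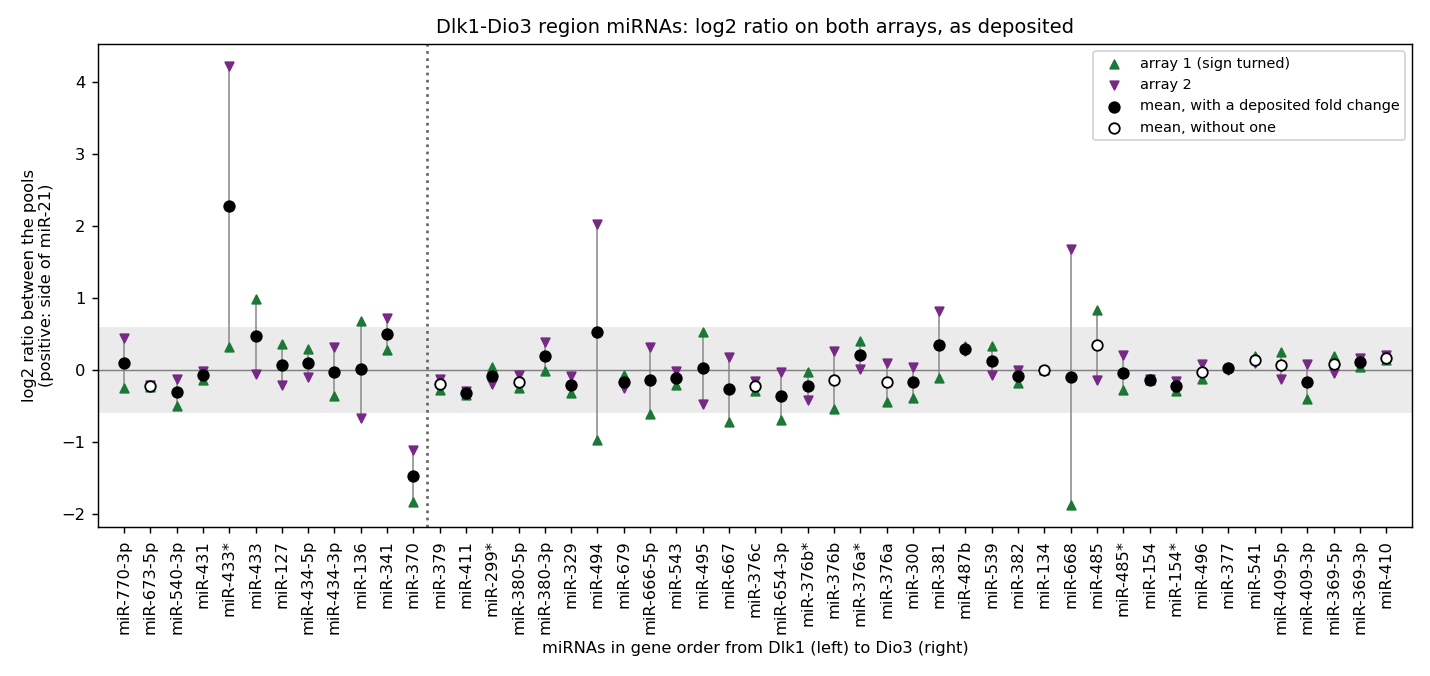
Log2 ratio between the pools (vertical axis, positive on the side of miR-21) for the 49 miRNAs in gene order; triangles are the single arrays, circles their mean, filled where the authors' deposited table has a fold change, and the grey band spans 1.5-fold either way. The mean of miR-370 lies below the band at -1.47 and that of miR-433* above it at 2.27, with arrays at 0.33 and 4.22; the arrays of miR-494 and miR-668 lie on opposite sides of 0.

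The brightest members had arrays of opposite sign. miR-668 had -1.87 and 1.68 on the arrays, a mean of -0.10 ± 2.51, which before turning is 1.87 and 1.68, of 1 sign. miR-494 had -0.97 and 2.03, a mean of 0.53 ± 2.12. With exchanged dyes, a difference between the pools takes opposite signs before turning. With the trend removed the arrays of miR-668 came to 0.25 and -1.16 and those of miR-494 to 0.78 and -0.35, still of opposite sign. The authors' deposited table gives -0.54 for miR-668 and 0.51 for miR-494, both short of 1.5-fold. For these 2 miRNAs no side was shared by both arrays. The other bright member from miR-379 on, miR-667, had -0.71 and 0.18, and with the trend removed -0.41 and -0.24, a mean of -0.33 ± 0.12, beside -0.41 in the authors' deposited table.

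**Figure D3:**
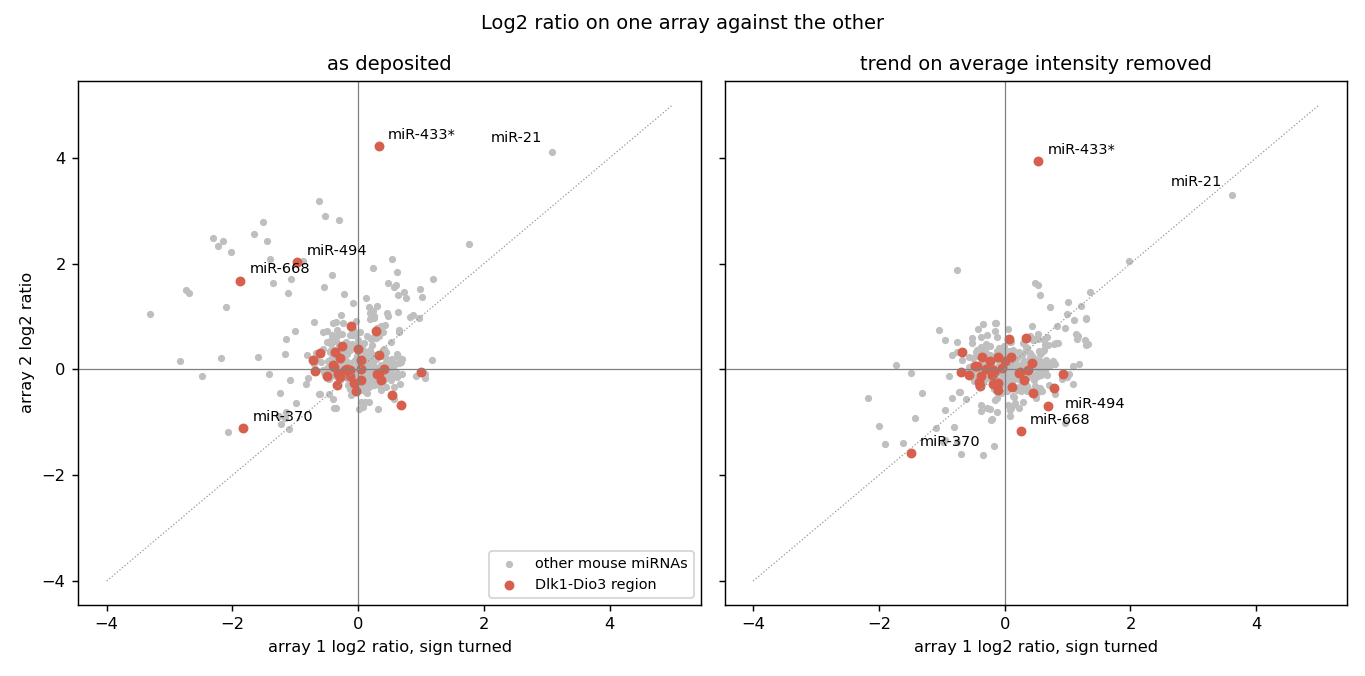
Log2 ratio on the second array (vertical axis) against that on the first with its sign turned (horizontal axis), as deposited (left) and with the trend on average intensity removed (right); red points are the 36 members with a fold change and grey points the other mouse miRNAs, and the dotted line marks equal values. With the trend removed miR-370 lies almost on the line at -1.49 and -1.58, miR-433* stays far above it at 0.53 and 3.94, and miR-668 and miR-494 move toward the rest.

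The members whose genes overlap Rtl1 include miR-127, miR-136, miR-431, miR-433 and miR-434, the miRNAs that lie antisense to its transcript. Of 8 with a fold change, miR-433* alone passed the rule of size, against 12.1% of the 373 mouse miRNAs on either side. The median of the 8 was 0.04. miR-127 had 0.36 and -0.21 on the arrays, a mean of 0.08 ± 0.40. miR-136 had 0.68 and -0.67, the arrays nearly cancelling to a mean of 0.01 ± 0.96. miR-431 had -0.13 and -0.02, and both arms of Mir434 had arrays of opposite sign, with means of 0.10 ± 0.28 for miR-434-5p and -0.02 ± 0.48 for miR-434-3p. None of these differed from 0 by more than its technical SD. miR-540-3p, in the same span, had -0.49 and -0.13, a mean of -0.31 ± 0.26, and -0.45 in the authors' deposited table. At the Dlk1 end of the list, miR-770-3p, whose gene overlaps Meg3, had -0.25 and 0.45, a mean of 0.10 ± 0.49.

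From miR-379 on toward Dio3 the region holds a dense run of miRNA genes, known in rat neurons to be induced together by the factor Mef2. On either side 12.1% of the 373 mouse miRNAs passed the rule of size, but 44 of these 45 lay above the median intensity of 7.16. None of the 25 members of this run with a fold change passed. Their median intensity was 6.85, so the 12.1% is not a like share for them. The median ratio of the 25 was -0.10, and -0.14 with the trend removed, and 16 of 25 means were on the opposite side from miR-21. Before miR-379 the median of 11 members was 0.08, and 0.05 with the trend removed, with 4 of 11 on the opposite side. With the trend removed, 18 of 25 and 5 of 11 were on that side. Over all 373 mouse miRNAs the median was 0.08 and 39.9% were on the opposite side. By the fold changes of the authors' deposited table these stretches have medians of -0.05 from miR-379 on and -0.03 before it. There 16 of 25 (64%) and 8 of 11 (72.7%) are on the opposite side, so the order of these shares depended on the values used. The difference between the stretches was not tested.

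Among the members from miR-379 on, miR-654-3p had the lowest mean, with -0.69 and -0.03 on the arrays and -0.36 ± 0.47 over them. The authors' deposited table gives it -0.38. miR-411, the neighbour of miR-379, had -0.34 and -0.29, a mean of -0.32 ± 0.04, and -0.36 ± 0.06 with the trend removed. Its arrays lay close together, but its probe was dim, with an average log2 intensity of 6.61, and the authors' deposited table gives -0.12. miR-329 had -0.32 and -0.09, a mean of -0.21 ± 0.17, and -0.18 in the authors' deposited table. On the side of miR-21, miR-487b had 0.33 and 0.26, a mean of 0.30 ± 0.05, beside 0.18 in the authors' deposited table, and miR-381 had -0.11 and 0.82, a mean of 0.35 ± 0.65. The arrays of miR-487b lay close together, while those of miR-381 were on different sides.

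Some members have near-identical sequences, so that a probe may bind a neighbour too. miR-300 and miR-381 share 19 of 22 bases when compared from the 5′ end, and differ within the seed, as printed:
miR-300: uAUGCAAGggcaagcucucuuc
miR-381: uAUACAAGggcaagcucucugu

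miR-300 had -0.38 and 0.04, a mean of -0.17 ± 0.30, against 0.35 ± 0.65 for miR-381, so the means differed by less than the SD of miR-381. miR-376a and miR-376b share 18 of 21 bases. The miR-376 miRNAs are known for editing of adenosines in their seeds in mouse brain. Neither miR-376a nor miR-376b, nor miR-376c, has a fold change in the authors' deposited table. Their opposite arms have one: miR-376a* had 0.41 and 0.01 on the arrays, a mean of 0.21 ± 0.28, and miR-376b* -0.03 and -0.41, a mean of -0.22 ± 0.27. By their means these arms lay on different sides, each within its technical SD of 0. In the authors' deposited table both are positive, with 0.03 for miR-376a* and 0.009 for miR-376b*.

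At the end toward Dio3, the 5 measured members that overlap Mirg had means from -0.22 to 0.11. miR-154 had -0.13 on both arrays, and miR-154* -0.30 and -0.15, a mean of -0.22 ± 0.11, so both arms of this hairpin lay on the opposite side from miR-21. The authors' deposited table gives -0.32 for miR-154 and -0.10 for miR-154*. miR-377 had 0.05 and 0.00, miR-409-3p -0.40 and 0.08, and miR-369-3p 0.05 and 0.17. All values of this stretch lay inside the 1.5-fold limit on each array.

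Between these stretches, arrays of opposite sign were common. miR-495 had 0.53 and -0.48, a mean of 0.03 ± 0.71, and miR-666-5p -0.60 and 0.32, a mean of -0.14 ± 0.65. miR-539 had 0.33 and -0.07, and miR-485*, the opposite arm of a miRNA known to repress SV2A in rat neurons, -0.28 and 0.21. The means of miR-299*, miR-380-3p, miR-679, miR-543 and miR-382 lay between -0.16 and 0.19. None of these named members had a mean beyond 1.5-fold.

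Of 9 hairpins with both arms on the array, 3 had a fold change for both: Mir433, Mir434 and Mir154. By their means, the arms of Mir154 shared the side opposite miR-21 and those of Mir433 the side of miR-21, while the arms of Mir434 differed in sign. In the authors' deposited table the arms of Mir154 again share a sign, but those of Mir433 differ (0.11 and -0.07) and those of Mir434 share one (-0.0028 and -0.16). The means of all 4 arms of Mir433 and Mir434 lay within their technical SDs of 0. The arms are cut from 1 hairpin and so share their source.

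The 13 members without a fold change are miR-673-5p, miR-379, miR-380-5p, miR-376a, miR-376b, miR-376c, miR-134, miR-485, miR-496, miR-541, miR-409-5p, miR-369-5p and miR-410. Their average log2 intensities in the authors' deposited table run from 6.55 to 6.70. The value table has ratios for them, with means from -0.22 for miR-376c to 0.35 for miR-485. None passed the rule of size. On either side 45 of the 419 mouse miRNAs (10.7%) passed it, and all 45 have a fold change. No mouse miRNA without a fold change passed, so the 10.7% is not a like share for these 13. miR-485 had 0.83 and -0.13 on the arrays, and miR-134, known to restrain growth of dendritic spines in rat neurons, had 0.00 and -0.01. For probes this dim a ratio near 0 does not show equal levels.

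Taken over the 36, the median was -0.06, beside 0.08 over the 373 mouse miRNAs, and with the trend removed -0.08 beside 0.02. In the authors' deposited table the medians are -0.04 and -0.02. Of the 36, 20 means were on the opposite side from miR-21 (55.6%, against 39.9% of the 373), and 23 with the trend removed (63.9%, against 45.8%). By the fold changes of the authors' deposited table, 24 members are on that side (66.7%, against 54.7%). Both arrays had 1 sign for 17 of 36 members (47.2%, against 45.3%), 11 on the opposite side and 6 on the side of miR-21. Of the 373, 61 had 1 sign on the opposite side and 108 on the side of miR-21. The median distance of a mean from 0 was 0.16, against 0.20 over the 373, and 27 of the 36 lay within 0.30 of 0 (75%, against 66.8%). No test of the members against the other mouse miRNAs was made.

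At 1.5-fold in the authors' deposited table, miR-370 was the single member, on the opposite side, against 5.63% of the 373 on that side and 3.75% toward miR-21, and 9.38% in both directions. The sign of the mean was that of the authors' deposited table for 26 of the 36 members, and for 274 of the 373 mouse miRNAs, a share near that of the members. Both tables come from the same arrays and are not independent. The 10 with another sign were miR-770-3p, miR-433, miR-127, miR-434-5p, miR-495, miR-376b*, miR-539, miR-485*, miR-409-3p and miR-369-3p. All of these lie between -0.15 and 0.10 in the authors' deposited table.

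**Figure D4:**
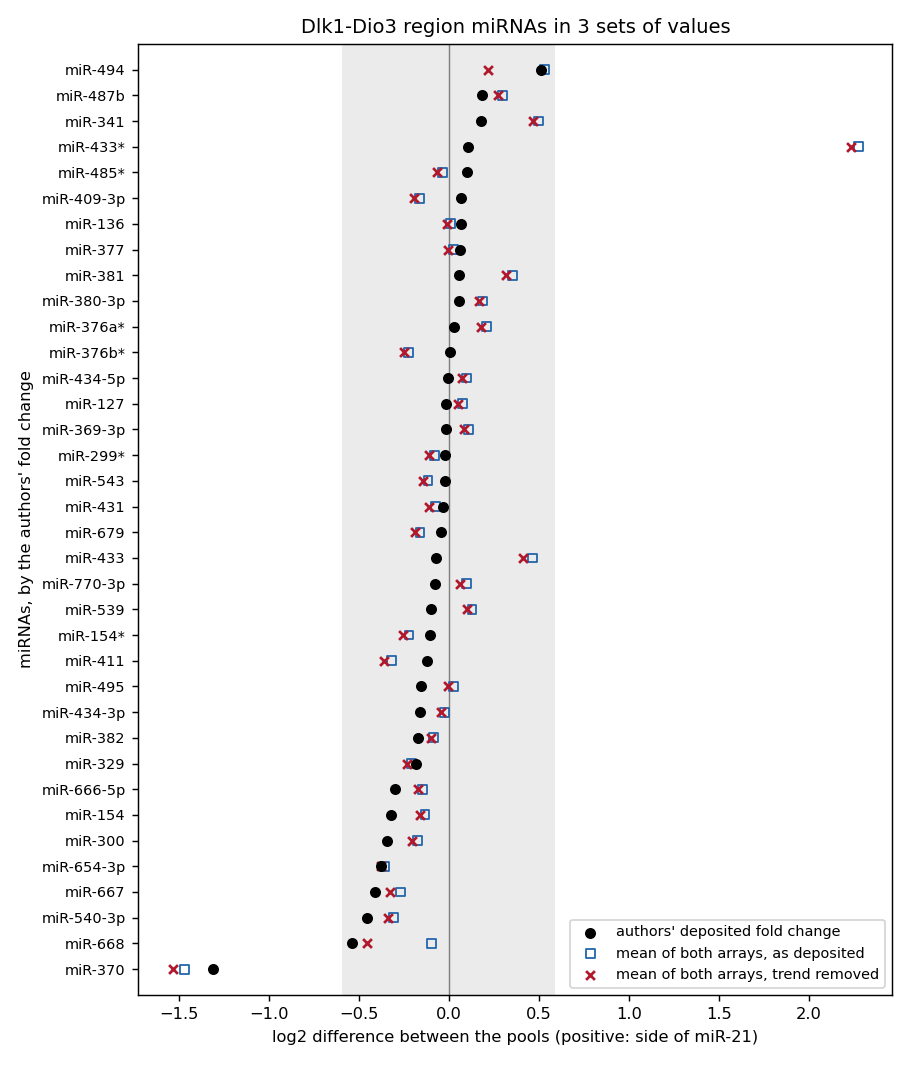
Log2 difference between the pools (horizontal axis, positive on the side of miR-21) for the 36 miRNAs, ordered by the authors' deposited fold change (black), with the mean of both arrays as deposited (blue squares) and with the trend removed (red crosses); the grey band spans 1.5-fold either way. miR-370 lies outside the band in all 3 sets, at -1.31, -1.47 and -1.53, while miR-433* lies outside it in the array means only.

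Other imprinted miRNAs were described the same way: miR-335 of Mest, miR-675 of H19, miR-296 and miR-298 of the Gnas region, and miRNAs of the Sfmbt2 cluster. Of 13 with a fold change, 1 passed the rule of size, toward miR-21, where 8.85% of the 373 mouse miRNAs passed. This was miR-675-5p, with 0.24 and 1.09 on the arrays and 0.67 ± 0.61 over them. The median of the 13 was 0.08 as deposited, beside -0.06 for the Dlk1-Dio3 miRNAs, and 0.02 beside -0.08 with the trend removed. In the authors' deposited table the order is the other way, with -0.13 for the 13 and -0.04 for the Dlk1-Dio3 miRNAs, so which set lay lower depended on the values used.

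As a check of the cell type, all 7 miRNAs that mark keratinocytes, among them miR-205 and the miR-200 family, lay above 6.99 in the authors' deposited table, from 7.16 to 11.9. Of 6 neuron markers 4 did, none above 7.10, and of 11 embryonic stem cell markers 1 did. Of fibroblast and smooth muscle markers 3 of 5 did, up to 8.2 for miR-143, of muscle markers 2 of 4, up to 8.12 for miR-1, of blood markers 1 of 5, miR-223 with 7.52, and the liver marker miR-122 did not. Some of these miRNAs had mean log2 ratios far from 0: miR-143 had 2.06, and on the side of miR-370 miR-141 had -1.03, miR-200c -0.98 and miR-200b -0.81. The other fibroblast and smooth muscle markers lay nearer to 0: miR-145 had 0.24, miR-214 0.11, miR-199a-5p 0.01 and miR-199a-3p -0.03. So did the other keratinocyte markers, with -0.33 for miR-203, -0.30 for miR-200a, -0.03 for miR-429 and 0.09 for miR-205. The median ratio was -0.33 over the keratinocyte markers and 0.11 over those of fibroblast and smooth muscle. Brain and embryo are the tissues in which the region's miRNAs are best known. The part of cell makeup in the values above was not tested, and in pooled RNA fewer cells of a type and less RNA per cell cannot be told apart.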

How the data were processed

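RNA of each pool was labelled with Cy3 or Cy5 for arrays of locked nucleic acid miRNA probes, per the labels. The authors deposited a processed dye ratio per array for 2244 features, taken as log2, and a table of log2 fold change, average log2 intensity, a signed fold score and an unadjusted p-value for 2101 probes, per the file headers. The log2 scale of the ratios was inferred. The authors' log2 fold change followed the mean with a slope of 0.77 over 152 probes at intensities from 9 to 12. The value would be 1 for log2 and 1.44 for natural logs, so the slope met neither but lay nearer to 1. Background correction, normalization, centring and the order of the dyes were each not given in the sources used here. Array medians were 0.039 and 0.040. The deposited p-values were not used, since their replicates are not stated.

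The first array's sign was turned and both arrays were averaged, as were probes of 1 miRNA. Left out were 1586 near-homologue, 77 additional, 14 unknown and 2 mismatch probes. The trend was a lowess fit on average intensity (span 0.3) over the 1677 probes with a fold change. It was tried on simulated data together with the rule of size. The simulated arrays carried this same fitted trend and less noise than the data, so they do not show recovery at the spread seen here. The number of arrays and the dimness of most probes limit the precision.

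The members, lists and named miRNAs were chosen with earlier results of these data known. Described in full are members past the rule of size, the 5 highest and 5 lowest of 1 sign, the 5 brightest, those over 1 apart between the arrays, hairpins with both arms measured, and members without a fold change; any member may be named. Alternatives were other limits, single arrays, median centring, the trend removed, the authors' fold change, brighter miRNAs, probes without a fold change, the brighter arm and members of 1 sign. Used were pandas 2.3.3, statsmodels 0.14.6, NumPy 2.4.6, matplotlib 3.10.9 and SciPy 1.17.1 under Python 3.11.15.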

Additional observations from a re-analysis of the deposited data

How the results depend on the processing

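The counts past the rule of size were 1 toward miR-21 and 1 opposite it, and they were again 1 and 1 with median-centred arrays, with the trend removed, at 2-fold, without the demand on signs, among brighter members and with the 13 members without a fold change. Over all mouse miRNAs in these settings the shares ran from 4.02% at 2-fold to 17.8% among brighter miRNAs toward miR-21, and from 1.88% to 5.95% opposite it. At the lower limit of 0.32 on the log2 scale they were 2 and 2, with miR-341 and miR-654-3p added. By the authors' deposited fold change they were 0 and 1; miR-433*, with 0.11, dropped out, and the cause was not tested. On single arrays, where 1 sign cannot be demanded, the counts were 2 toward miR-21 and 6 opposite it on the first array (8.85% and 13.9% of all mouse miRNAs) and 5 and 2 on the second (23.3% and 4.56%). The median of the members, -0.06, ran from -0.13 to -0.006 on the single arrays and was 0.10 over the 13 brighter members, the one alternative in which it was positive; the cause was not tested. It stayed between -0.13 and -0.04 in the other alternatives. For 16 named members under median centring, with the trend removed and by the authors' fold change, 41 of 48 values lay within 1 technical SD of the mean and 7 farther. The latter were of miR-411, miR-487b, miR-341 and miR-369-3p, and neither miR-370 nor miR-433* changed sign. The SD is each member's own, so for members with arrays far apart the count does not measure stability. By the authors' fold change miR-433* went from 2.27 to 0.11, within its SD of 2.75. miR-433 went from 0.47 to -0.07, a change of sign within its SD of 0.74. So did miR-376b*, from -0.22 to 0.009, and miR-495, from 0.03 to -0.15, each within its SD. miR-369-3p went from 0.11 to -0.02, a change of sign beyond its SD of 0.09. The mean of miR-136, 0.01, became -0.06 with median centring and -0.009 with the trend removed, and miR-495 also turned negative in both. No paired analysis was possible because the arrays compare 1 pool with 1 pool and form 1 group.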

Other observations

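miR-433* had the second highest mean of the 373 mouse miRNAs, yet ranked 97 in the authors' deposited table. With the trend removed, no mouse miRNA had arrays as far apart as miR-433*; as deposited, 10 did, itself included. Why the deposited tables differ for this probe was not tested. Across the 36 members, which are not independent replicates and share both arrays, the turned arrays correlated with r = -0.08 as deposited and 0.26 with the trend removed. Over the 373 mouse miRNAs these were -0.08 and 0.44. Without miR-433* and miR-370, the other 34 members had r = -0.61 as deposited and -0.25 with the trend removed. The pair left out was chosen for 1 sign on both arrays, which by itself lowers r. The 373 kept all that passed the same rule, so their r is not a like value for the 34. Among the 34 are miR-668 and miR-494, whose arrays lay far apart on opposite sides of 0. The GC content of the mature sequences of 35 members ran from 23.8% to 72.7%, and correlated with average intensity with r = 0.25 and rho = 0.13, where miR-668 (66.7% GC) and miR-494 (45.5% GC) were the brightest.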
